A study of Mus musculus with 6 samples.

Results

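Potassium channel genes were read in endothelial cells of the mouse cerebellum that lacked the receptor Frizzled4 or carried it. The set held every gene that the array's annotation names alone on a probe set under a symbol of the form Kcn, letters and a number, except Kcne3, Kcnj8, Kcnj10 and Kcnj13, and counted 76 of 18193 genes (154 of 45037 probe sets). The cells came from P16 (postnatal day 16) cerebella and were captured with magnetic beads coated with anti-PECAM, which binds an adhesion molecule of endothelium. The groups were Fz4-/- (Fz4-null, lacking the Fzd4 gene product) and wild type, both of mixed gender and on a C57Bl6/129 mixed background, with 3 preparations each on 1 Affymetrix 3' array apiece. The labels do not say how the null allele was made or whether animals were pooled. Channels known from endothelium are set beside channels known from neurons.

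Potassium channels let potassium leave or enter a cell along its gradient and so set the membrane voltage. In endothelium, their opening hyperpolarizes the cell, which favours calcium entry, and the signal spreads through gap junctions to smooth muscle and relaxes the vessel. In neurons the same superfamily ends action potentials and sets firing rate. Frizzled4 receives Norrin and Wnt signals, acts through beta-catenin and TCF/LEF factors, and is needed for vessel growth and the blood-brain barrier in retina and cerebellum.

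Values are log2 RMA expression and differences are Fz4-null minus wild type on that scale. The array medians lay between 5.52 and 5.58 and the lower quartiles between 3.46 and 3.64, which serve below as marks of a middling and a dim reading. Probe sets differ in how strongly they bind, so levels of different genes were not ranked against each other. Fzd4 itself read 10.20 to 10.88 in wild-type cells and 3.04 to 4.03 in Fz4-null cells (difference -6.94, SE 0.34, adjusted p = 0.00965 in limma). With the replicate number as a block the adjusted limma p of Fzd4 was 0.127, so it no longer passed, while every null array lay below every wild-type array. Whether its probe set lies within the deleted part was not tested. All 14 measured pan-endothelial markers lay above the array median on all 6 arrays, with list means of 11.29 to 11.46 in wild-type cells and 11.58 to 11.68 in Fz4-null cells. Other cells were present too, and 2 arrays stood apart. Relative to the wild-type mean, null replicate 1 averaged -2.52 over microglia and macrophage markers and -1.20 over pericyte and smooth muscle markers, and wild-type replicate 3 averaged 1.60 over choroid plexus markers. In bulk RNA, fewer cells of a type and less RNA per cell cannot be told apart.

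No potassium channel gene passed the test. In limma, with Benjamini-Hochberg adjustment over all probe sets, 0 of 76 had an adjusted p under 0.05, against 0.0220% of all genes (0.00550% lower and 0.0165% higher), and the lowest was Kcnq3 at adjusted p = 0.850. At an unadjusted limma p under 0.05 there were 2 (Kcnq3 and Kcne2, both lower in Fz4-null cells), or 2.63%, against 4.60% of all genes in either direction, 2.26% lower and 2.34% higher. With the replicate number as a block the count was 4, Kcnmb1 and Kcnk1 being the additions and all 4 lower, or 5.26%, against 8.89% of all genes in either direction, 4.33% lower and 4.56% higher. With the block 0 passed the adjusted threshold, against 0.00% of all genes. The groups did not overlap for 3 members, Kcnq3, Kcne2 and Kcnc4, or 3.95%, against 9.54% of all genes in either direction, 4.95% lower and 4.59% higher. Without null replicate 1 the unadjusted count was 4 (Kcnd3, Kcnj3, Kcnq3 and Kcns2). It was 5 without null replicate 2 (Kcnj14, Kcnk2, Kcnmb1, Kcnn2 and Kcnq3) and 5 without wild-type replicate 3 (Kcne1, Kcne2, Kcnmb1, Kcnq1 and Kcnq3), so Kcnq3 alone was in each of these counts. The share of all genes was not counted with an array left out, so a rise in these counts cannot be read as one of the channels. Most differences were small, with 68 of 76 genes under 0.5 in size (89.5%, against 88.2% of all genes), while 4 differed by 1 or more (5.26%, against 2.11% of all genes). On simulated arrays 200 probe sets were changed by log2 1, 2 or 4. The same test recovered 79.4% of those changed by log2 2 but 4.48% of those changed by log2 1. Of its calls there, 6.31% were false. The simulated noise was independent between arrays. In the real arrays, deviations from the group means correlated between null and wild-type arrays at -0.463 to 0.574, so these rates need not hold there. Here Kcne2 at -2.24 (SE 0.87) and the choroid plexus marker Ttr at -2.48 (SE 0.50, adjusted p = 0.58 in limma) did not pass. Whether either is a true change that the test missed is not known. Recovery also depends on how many large changes are present, and only 4 of all genes passed the adjusted threshold here. In the simulation a change of log2 2 was sometimes missed and one of log2 1 mostly was. The lack of a call therefore does not show that a gene was unchanged.

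Lower readings outnumbered higher ones. In the null arrays 54 of the 76 genes read lower (71.1%), with a median difference of -0.135, against 48.7% and 0.008 over all genes. Most of the set was dim: 58 genes had a mean below the median of all probe sets, and dim genes as a whole also leaned lower. Of the 7267 genes at such levels, 63.1% read lower with a median of -0.082, beside 72.4% and -0.144 for the 58 channels. Among genes with a mean at or above that median, 39.1% of all and 66.7% of the 18 channels read lower. Leaving out null replicate 1 gave a median of -0.089 over the 76 genes, and leaving out wild-type replicate 3 gave -0.132.

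**Figure D1:**
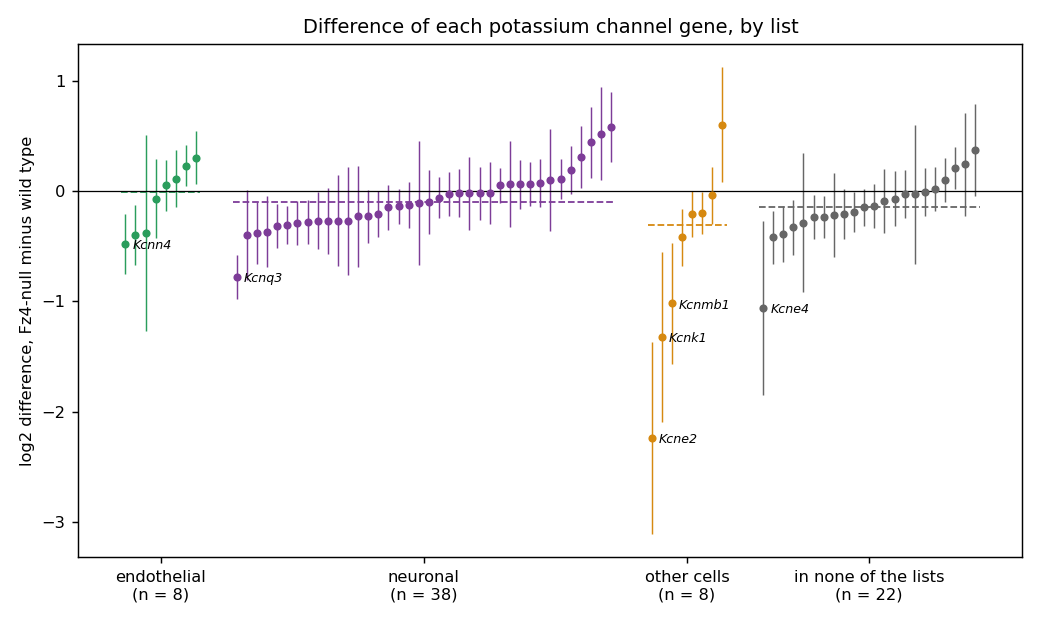
The log2 difference (Fz4-null minus wild type, vertical axis) of each of the 76 potassium channel genes, sorted within 4 lists, with bars for the moderated standard error and a dashed line at each list's median. Endothelial channels lie around 0 (median -0.009), neuronal channels slightly below it (-0.104), and the 4 genes 1 or more below 0 are Kcne2, Kcnk1, Kcne4 and Kcnmb1.

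Channels known from endothelium had no common direction, with 4 of 8 lower, 4 higher and a median of -0.009. Their differences ran from -0.48 to 0.30. Of the 8, 0 passed, either adjusted (against 0.0220% of all genes) or at an unadjusted limma p under 0.05 (against 4.60%). With so few genes, 0 says little about the list. Kcna5, Kcnn4 and Kcnk6 lay above the array median on all 6 arrays, and the other 5 had means below it.

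Kcna5 encodes Kv1.5, a voltage-gated pore subunit of vessels and heart. It read 9.21, 9.30 and 9.42 in wild-type replicates 1 to 3 and 9.36, 9.48 and 9.78 in null replicates 1 to 3. The null values lay slightly higher and overlapped the wild-type range, with the arrays numbered 3 highest in both genotypes. The difference was 0.23 (SE 0.19), with a 95% interval of -0.21 to 0.68, and 0.11 without null replicate 3.

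Kcnn4 encodes the intermediate-conductance calcium-activated channel through which endothelial calcium signals hyperpolarize the membrane. It read 7.03, 6.67 and 7.55 in wild-type cells and 6.85, 6.60 and 6.36 in Fz4-null cells. The ranges overlapped, and wild-type replicate 3 was highest and null replicate 3 lowest. The difference was -0.48 (SE 0.27, interval -1.13 to 0.17), and without wild-type replicate 3 it was -0.25, with adjusted p of 1.00 over all 6 arrays in limma. Kcnn4 is also expressed by microglia, whose 10 measured markers averaged -2.52, 0.07 and -0.22 from the wild-type level in the null preparations, and their part in the Kcnn4 values was not tested. Its other, dimmer probe set read 4.70 in wild-type cells and 4.45 in Fz4-null cells.

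Kcnk6, a tandem-pore leak channel, read 5.94, 5.86 and 6.31 in wild-type cells and 6.29, 5.75 and 6.21 in Fz4-null cells. The groups covered nearly the same range, and the difference was 0.05 (SE 0.23, interval -0.49 to 0.59). The related Kcnk5, an acid-sensitive leak channel, read 4.61 to 5.04 in wild-type cells and 4.98 to 5.57 in Fz4-null cells (difference 0.30, SE 0.24). Without null replicate 2 that difference was 0.11, and without wild-type replicate 2 it was 0.16.

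Kcnk2, the mechanosensitive leak channel TREK-1, varied most among the endothelial channels. It read 5.92, 5.62 and 5.07 in wild-type cells and 3.51, 7.27 and 4.69 in Fz4-null cells, where replicate 1 was about at the lower quartile and replicate 2 was the highest of all 6 arrays. The SD was 1.92 in the null group against 0.43 in wild-type cells. The difference of -0.38 (SE 0.89) became 0.44 without null replicate 1 and -1.44 without null replicate 2, so its direction rests on 1 array. Marker lists of several other cell types had the same order over the null arrays. From the wild-type level, fibroblast and meningeal markers averaged -2.48, 0.41 and -0.66, microglia and macrophage markers -2.52, 0.07 and -0.22, astrocyte and Bergmann glia markers -1.95, 0.45 and 0.19, and oligodendrocyte markers -0.81, 0.12 and -0.03. Choroid plexus markers also had this order (-1.82, -1.36 and -1.47). The other lists did not: pericyte and smooth muscle markers (-1.20, -0.01 and 0.27) and pan-neuronal markers (-0.68, 0.17 and 0.35), for instance, were highest on null replicate 3. Over wild-type replicates 1 to 3 Kcnk2 fell, while astrocyte and Bergmann glia markers rose (-0.46, -0.01 and 0.48). There, fibroblast and meningeal markers lay at -0.09, -0.14 and 0.23. The part of these cells in the Kcnk2 values was not tested.

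The remaining endothelial channels were dim. Kcnj2, the Kir2.1 inward rectifier with which brain capillaries sense potassium, read 3.77, 3.90 and 2.88 in wild-type cells and 3.79, 3.67 and 2.89 in Fz4-null cells. Both arrays numbered 3 were low and the rest nearly equal, and with only this probe set, at about the lower quartile, the gene is not shown to lie above background. Kcnj12 (Kir2.2) read 4.26 to 5.09 in wild-type cells and 4.16 to 4.66 in Fz4-null cells. Kcnn3, the small-conductance calcium-activated channel of endothelium, read 4.05 to 4.93 and 4.50 to 4.83. Neither lay above the array median on any array.

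**Figure D2:**
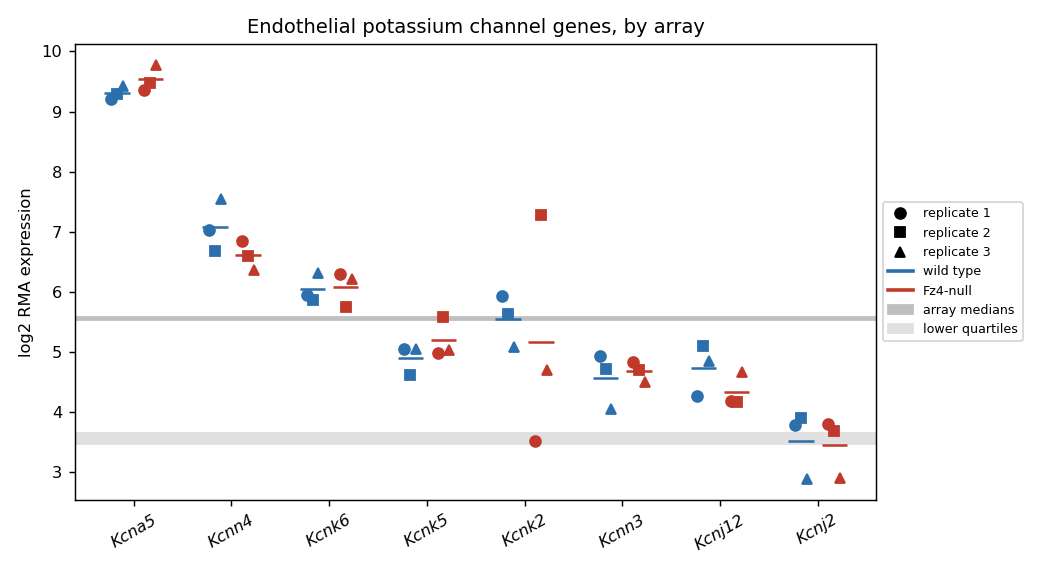
Log2 RMA expression (vertical axis) of the 8 endothelial channel genes on each array, wild type in blue and Fz4-null in red, with a line at each group mean and grey bands at the array medians and lower quartiles. The groups overlap for every gene, and Kcnk2 in Fz4-null cells spans 3.51 to 7.27.

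Channels known from neurons were mostly dim in these preparations. The list held 38 genes with values here. Only Kcnab1 lay above the array median on all 6 arrays, and 8 of 38 had a mean at or above the median of all probe sets (21.1%, against 60.1% of all genes). That share was near the 23.7% of all 76 channel genes, which include these 38, and the 18.2% of genes in none of the lists. By the stricter measure the neuronal list was dimmer. Above the array median on all 6 arrays lay 2.63% of it, against 10.5% of all 76 and 9.09% of genes in none of the lists. Of the 8 endothelial channels, 37.5% passed by either measure. In the null arrays 26 read lower and 12 higher, with a median of -0.104 and a range of -0.78 to 0.58. At an unadjusted limma p under 0.05 there was 1, Kcnq3 (2.63%, against 4.60% of all genes in either direction and 2.26% lower). For the channels above the array median on all 6 arrays, 3 endothelial and 1 neuronal, the medians were 0.05 and -0.13. Their gap of 0.18 rests on a single neuronal gene, and its sign was not stable: without null replicate 1, when 4 neuronal channels lay above the median, it was -0.31. Over all measured members the gap was 0.09. Without null replicate 1 the medians of all measured members were -0.009 for endothelial and -0.087 for neuronal channels, and without wild-type replicate 3 they were -0.195 and -0.123.

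By array, the neuronal channels averaged -0.15, -0.07 and -0.03 from the wild-type mean in the 3 null preparations, and 0.00, 0.07 and -0.07 in the 3 wild-type ones. Pan-neuronal markers such as Snap25 varied more on the same arrays, at -0.68, 0.17 and 0.35 in the null group and -0.32, -0.12 and 0.45 in wild-type cells. Of those 12 markers 3 lay above the array median on all 6 arrays, and their list means spanned 5.07 to 6.10 in Fz4-null cells and 5.43 to 6.20 in wild-type cells, with 0 below the lower quartile on every array. Their part in the channel values was not tested.

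**Figure D3:**
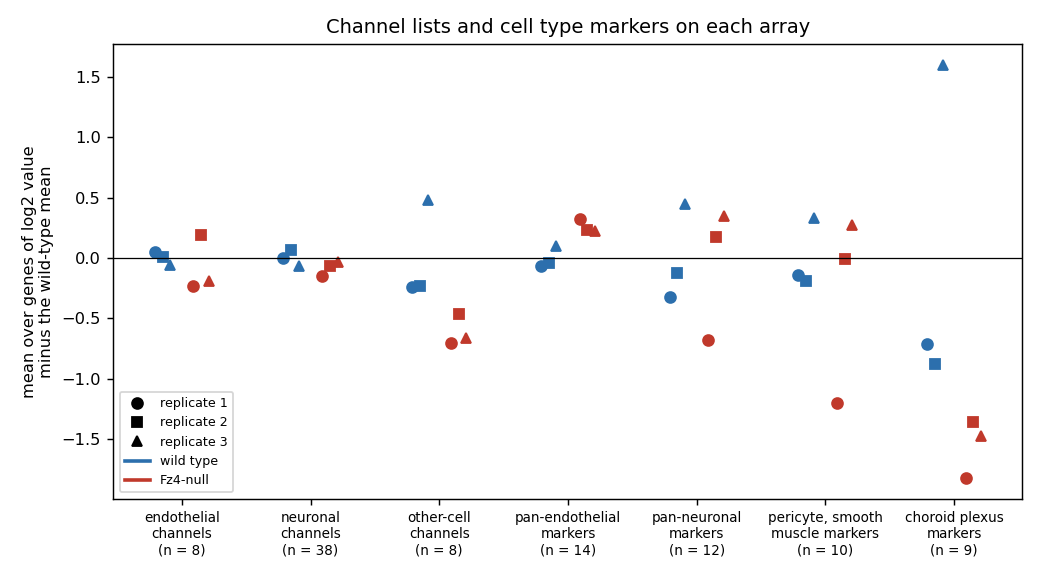
For 3 channel lists and 4 marker lists, the mean over genes of the log2 value minus that gene's wild-type mean (vertical axis) on each array, wild type in blue and Fz4-null in red. Endothelial and neuronal channels stay within 0.23 of the wild-type mean on all 6 arrays, while choroid plexus markers reach 1.60 above it on wild-type replicate 3.

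Kcnq3 had the lowest p of the set. It encodes a pore subunit of the M-current, a slow voltage-gated current that restrains neuronal firing. It read 5.14, 5.06 and 4.79 in wild-type cells and 4.0, 4.25 and 4.41 in Fz4-null cells. Every null array lay below every wild-type array, and all 6 lay below the array median. The difference was -0.78 (SE 0.20), or 1.72-fold lower, and lay between -0.88 and -0.67 when each array was left out in turn. Its other probe set, dimmer still, did not read lower, with 2.88 ± 0.05 (SD, n = 3) in wild-type cells and 3.04 ± 0.32 in Fz4-null cells. With the mean of both probe sets the difference was -0.31 (SE 0.17), and Kcnq3 was no longer below an unadjusted limma p of 0.05.

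The other KCNQ genes read higher on average. Kcnq1, the partner of Kcne subunits in heart and epithelia, read 7.57, 7.96 and 9.26 in wild-type cells and 9.03, 8.13 and 9.44 in Fz4-null cells. Its groups overlapped and the arrays numbered 3 were highest in both genotypes. The difference was 0.60 (SE 0.52), the highest of all 76 genes. It was 0.25 if wild-type replicate 1 was left out and 0.32 if null replicate 3 was, and reached 0.97 if null replicate 2 and 1.10 if wild-type replicate 3 was left out. Kcnq5, another M-current subunit, read 0.06 higher on average.

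The voltage-gated pore genes of the Kcna to Kcnd families numbered 13, with differences of -0.31 to 0.52 and a median of -0.207. Kcnc4, a fast-activating Kv3 subunit, had the lowest p among them. It read 5.44, 5.62 and 5.73 in wild-type cells and 5.34, 5.19 and 5.31 in Fz4-null cells, so the groups did not overlap, yet by a small margin (difference -0.31, SE 0.17). Kcnd3, an A-type channel of neurons, read 5.50, 6.44 and 7.24 in Fz4-null cells and 5.76 to 6.04 in wild-type cells, so the null arrays lay on both sides of the wild-type range. Its other probe sets, all dimmer, differed by -0.14, -0.07 and -0.59. Of Kcna1 and Kcna2, the classical axonal channels, neither exceeded the array median on any array. Kcna3, known from lymphocytes and microglia, stayed below the lower quartile on all 6 arrays.

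The 9 modulatory genes (Kcnf, Kcng, Kcns and Kcnv), whose products are silent alone and tune other pores, had 0 members with a mean at or above the median of all probe sets. Their differences ran from -0.37 to 0.44, with Kcns1 at -0.28 (SE 0.20) having the lowest p. The 6 ether-a-go-go genes (Kcnh) ran from -0.32 to 0.06 on their brightest probe sets. The other probe set of Kcnh1, a neuronal member, read 3.12 ± 0.82 in wild-type cells and 4.37 ± 0.48 in Fz4-null cells (SD, n = 3), below the array median on all 6 arrays, for a difference of 1.25 (SE 0.45, adjusted p = 1.00 in limma). With the mean of its probe sets Kcnh1 was below an unadjusted limma p of 0.05. Dimmer probe sets of Kcnc1 (-0.89), Kcnd3 (-0.59), Kcnip2 (-0.52) and Kcnd1 (-0.46) read lower at an unadjusted limma p under 0.05. None passed the adjusted threshold, and the share over all probe sets was not counted. Kcnh3 read 5.54 to 6.01 in wild-type cells and 5.26 to 5.54 in Fz4-null cells. The repolarizing cardiac channel gene Kcnh2 read 4.04 ± 0.54 in wild-type cells and 3.94 ± 0.13 in Fz4-null cells (SD, n = 3).

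Inward rectifiers (Kcnj, 12 genes) divided evenly, 6 lower and 6 higher, with a median of 0.035. Kcnj14 was the only member above the array median on all 6 arrays, at 6.32, 6.32 and 7.07 in wild-type cells and 7.38, 5.76 and 7.28 in Fz4-null cells. The null values lay on both sides of the wild-type ones, and the difference of 0.24 (SE 0.47) was -0.05 without null replicate 1. Kcnj16, an astroglial rectifier, read 4.41 to 4.81 in wild-type cells and 4.30 to 4.55 in Fz4-null cells (difference -0.20, SE 0.19). Its other, dimmer probe set read 3.58 ± 1.21 in wild-type cells and 2.56 ± 0.19 in Fz4-null cells (SD, n = 3), a difference of -1.03 (SE 0.56). The mean of its probe sets differed by -0.61 (SE 0.28). The neuronal G-protein-gated rectifiers Kcnj3, Kcnj6 and Kcnj9 had differences of -0.11, 0.19 and 0.11.

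Tandem-pore leak channels (Kcnk, 12 genes) had a median of -0.065. Kcnk1, the leak channel TWIK-1, read 6.05, 5.69 and 8.33 in wild-type cells and 4.37, 5.47 and 6.25 in Fz4-null cells. In both genotypes replicate 3 was highest, and the groups overlapped. The difference was -1.32 (SE 0.77), or -0.51 without wild-type replicate 3 and -0.83 without null replicate 1. Its other probe set differed by -0.97 (SE 0.48). Kcnk1 is known from astrocytes, and astrocyte and Bergmann glia markers lay at -1.95, 0.45 and 0.19 on null replicates 1 to 3 and -0.46, -0.01 and 0.48 on wild-type replicates 1 to 3. Their list means spanned 6.39 to 8.80 in Fz4-null cells and 7.88 to 8.82 in wild-type cells, and their part in the Kcnk1 values was not tested. Wild-type replicate 3, where Kcnk1 was highest, was also the array with high choroid plexus markers. Kcnk3, an acid-sensitive leak channel of pericytes and smooth muscle, read 7.10, 6.87 and 6.76 in wild-type cells and 6.62, 6.87 and 5.99 in Fz4-null cells (difference -0.42, SE 0.26, and -0.17 without null replicate 3). Kcnk13, a microglial leak channel, read about at the lower quartile in both groups, at 3.65 ± 0.36 and 3.61 ± 0.32 (SD, n = 3).

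Calcium- and sodium-activated channels (8 genes) ran from -0.48 to 0.11, with Kcnn4 lowest. Kcnma1, the large-conductance BK channel of neurons and smooth muscle, read 6.53, 6.41 and 5.35 in wild-type cells and 6.24, 5.92 and 6.05 in Fz4-null cells. The wild-type range enclosed the null one, and the difference was -0.02 (SE 0.33).

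Auxiliary subunits (Kcne, Kcnab, Kcnip and Kcnmb, 13 genes) held 3 of the 4 differences of 1 or more, and 12 of 13 read lower, with a median of -0.226. Kcne2, a subunit of choroid plexus and gastric epithelium, read 3.22, 3.68 and 6.76 in wild-type cells and 2.45, 2.14 and 2.35 in Fz4-null cells. The null arrays lay below all wild-type arrays and below the lower quartile, and only wild-type replicate 3 lay above the array median. The difference was -2.24 (SE 0.87), and -1.14 without wild-type replicate 3 (SE 0.23, adjusted p = 0.531 in limma). Choroid plexus markers were also highest on wild-type replicate 3, with 9 of 9 measured markers lower in Fz4-null cells, list means of 4.52 to 4.98 there and 5.46 to 7.94 in wild-type cells, and 0 below the lower quartile on every array. The left-out channel gene Kcnj13 is among these markers. The part of choroid plexus cells in the Kcne2 value was not tested.

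Kcne4, which damps voltage-gated pores, read 10.70, 10.84 and 10.47 in wild-type cells and 7.64, 10.92 and 10.26 in Fz4-null cells. Only null replicate 1 was low, and without it the difference of -1.06 (SE 0.79) was -0.08 (SE 0.28), while without null replicate 2 it was -1.72. On that array markers of several other cell types were low as well, microglia and macrophage markers at -2.52, fibroblast and meningeal markers at -2.48 and astrocyte and Bergmann glia markers at -1.95 from the wild-type level. Pericyte and smooth muscle markers lay at -1.20, their 10 measured genes averaging 9.58 against 10.60 to 11.11 in wild-type cells and up to 11.05 in the other null arrays, with all 10 above the array median on every array. The part of these cells in the Kcne4 value was not tested.

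Kcnmb1, the smooth muscle subunit that raises the calcium sensitivity of the BK channel, read 6.01, 6.88 and 5.18 in wild-type cells and 4.84, 5.92 and 4.25 in Fz4-null cells. The groups overlapped, while within each replicate number the null array was lower by a similar amount, at -1.17, -0.96 and -0.92. The difference of -1.02 had an SE of 0.55 without the block (adjusted p = 1.00) and 0.14 with it (adjusted p = 0.401 in limma). It was -0.59 without wild-type replicate 2 and -0.64 without null replicate 3. Its other probe set differed by -0.28 (SE 0.34), and the mean of both by -0.65. Pericyte and smooth muscle markers averaged -1.20, -0.01 and 0.27 from the wild-type level in the null preparations, and their part in the Kcnmb1 values was not tested. Kcnab1, a beta subunit of Kv1 channels, read 7.98, 8.28 and 7.77 in wild-type cells and 7.68, 8.04 and 7.92 in Fz4-null cells (difference -0.13, SE 0.21).

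**Figure D4:**
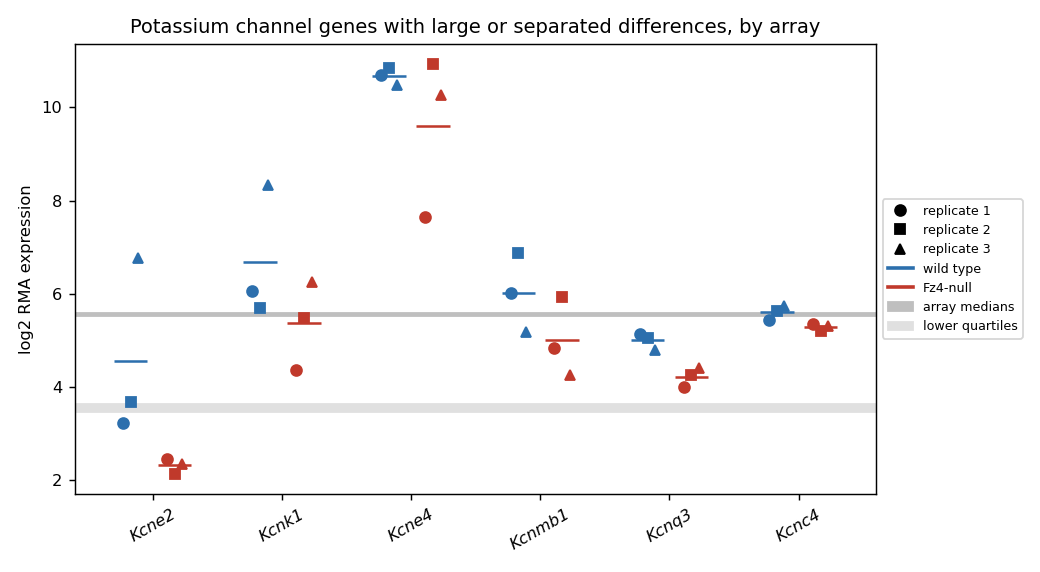
Log2 RMA expression (vertical axis) on each array of the 4 channel genes that differed by 1 or more and of Kcnq3 and Kcnc4, whose groups did not overlap, wild type in blue and Fz4-null in red, with a line at each group mean and grey bands at the array medians and lower quartiles. Wild-type replicate 3 is far above the other arrays for Kcne2 (6.76), and null replicate 1 is far below them for Kcne4 (7.64).

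Since Frizzled4 acts through TCF/LEF factors, promoters were searched for the TCF/LEF letters CTTTGAT or CTTTGTT on either strand within 250 bases before the gene's start. Sequences came from RefSeq (build GRCm38.p6), which held 57 of the 76 genes, and the first promoter listed for each was used. The letters occurred in 4 of 57 channel promoters (7.02%), against 8.04% of 27025 promoters of the same length. The stretches holding them are shown for their position and context, with the match in capitals, 5′ to 3′ on the gene's strand. They lie at chr1:78816661-78816703 (+) for Kcne4, chr16:95257308-95257342 (+) for Kcnj15, chr1:189402463-189402519 (-) for Kcnk2 and chr10:116473635-116473691 (-) for Kcnmb4.
Kcne4: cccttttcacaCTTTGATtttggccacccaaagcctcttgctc
Kcnj15: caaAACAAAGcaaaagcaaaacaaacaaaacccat
Kcnk2: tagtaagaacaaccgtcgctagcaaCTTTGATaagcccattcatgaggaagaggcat
Kcnmb4: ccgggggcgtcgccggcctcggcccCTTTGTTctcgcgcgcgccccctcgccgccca
These 4 genes lay on both sides of 0. Kcne4 and Kcnk2 are described above, Kcnj15, an inward rectifier, read 0.37 higher (SE 0.42), and Kcnmb4, the neuronal BK subunit, 0.58 higher (SE 0.32). None passed the test, and a match of letters does not show that a factor binds there.

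Further letters were searched on both strands in the same windows. The left element of RE1 (TTCAGCACC), a site of the neuronal repressor REST, occurred in 0 of 57 channel promoters, against 0.285% of all promoters, and the right element (GGACAGCG) in 1, that of Kcnj4 (1.75%, against 1.03% of all promoters). GC boxes (GGGCGG) occurred in 29 of 57 channel promoters (50.9%), against 32.9% of all. They occurred in 18 of 31 neuronal (58.1%) and 3 of 7 endothelial channel promoters (42.9%). The ETS core (CCGGAA) occurred in 3 of 57, against 12.2% of all.

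Partners of these channels were read from a list of 32 genes for potassium transport and endothelial hyperpolarization, of which 24 were measured. None passed the adjusted threshold (against 0.0220% of all genes) or an unadjusted limma p under 0.05 (against 4.60%). Of the 24, 15 read lower and 9 higher, with a median of -0.103. With the replicate block 2 of 24 had an unadjusted limma p under 0.05, Gja5 lower and Itpr2 higher (8.33%, against 8.89% of all genes in either direction), and 0 passed the adjusted threshold. Trpv4 and Piezo1, calcium entry channels that feed calcium-activated potassium channels, differed by 0.44 (SE 0.27) and 0.10 (SE 0.16). Itpr2, a calcium release channel, was the only partner whose groups did not overlap (4.17% of partners, against 9.54% of all genes in either direction and 4.59% higher), at 9.08, 9.30 and 9.46 in wild-type cells and 9.50, 9.75 and 9.74 in Fz4-null cells. The gap junction genes Gja1, Gja4 and Gja5 differed by -0.05, -0.15 and -0.99, where Gja5 (SE 0.46) read 3.83 to 5.09 in wild-type cells and 3.05 to 4.42 in Fz4-null cells. Slc12a5, a neuronal potassium-chloride exporter, had the highest difference, 1.07 (SE 0.49).

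Of the 4 channel genes left out of the set, Kcne3 read 6.35 to 7.27 in wild-type cells and 8.12 to 9.09 in Fz4-null cells. Its difference of 1.84 (SE 0.34) did not pass either (adjusted p = 0.521 in limma). Kcnj8, Kcnj10 and Kcnj13 differed by 0.00, -0.29 and -1.59, with SEs of 0.75, 0.36 and 0.85. Kcnj8 varied widely in Fz4-null cells, at 8.52, 10.79 and 11.49. Kcnj13, which is also in the choroid plexus marker list, read 5.15, 5.03 and 8.35 in wild-type cells and 4.61, 4.49 and 4.65 in Fz4-null cells. Its highest value was on wild-type replicate 3, where choroid plexus markers were high.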

How the data were processed

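The authors deposited RMA values, which the submitters' processing notes name and whose range shows a log2 scale. RMA corrects background, normalizes arrays and summarises probe sets, and it compresses differences near background. No version of it is stated. Of 45101 probe sets, 64 controls were left out. A gene was read from its brightest probe set with 1 symbol. Fz4-null was set against wild type by limma (3.58.1, run under R 4.3.3) with lmFit and eBayes on all 6 arrays, without covariates and two-sided, tested on simulated data, with Benjamini-Hochberg adjustment over 45037 probe sets at 0.05. An exact permutation test of 3 against 3 arrays cannot go below 0.1, so none was used. Errors are SD or moderated SE, and precision is limited by the number of arrays. The labels do not say that preparations were separate animals, so a p-value here reflects only how far these arrays scatter, which may be technical.

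Deviations from group means correlated at 0.244, 0.303 and 0.574 for like replicate numbers, above the 0.1 required for pairing. Unlike numbers also passed that mark, null replicate 2 with wild-type replicate 1 at 0.262 and null replicate 1 with wild-type replicate 2 at 0.124. Replicates 1 and 2 were therefore not clearly paired by number. The block was fitted as an alternative. Members and lists were chosen with earlier results of these data known. Named genes were the endothelial and other-cell lists, the lowest p per channel class, and the 5 highest and 5 lowest differences among genes above the median on all 6 arrays, 23 genes in all. Any further gene was chosen for mention with its values in view. Filtering, normalization, variance model, probe set choice and arrays left out were varied.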

Additional observations from a re-analysis of the deposited data

How the results depend on the processing

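No potassium channel gene passed the adjusted threshold under any of the 15 alternatives, or without both arrays numbered 3, and the lowest adjusted p of a named gene in any of them was 0.318. The count at an unadjusted limma p under 0.05 (2) was 0 with only probe sets at or above the median or log2 of 100. Those filters kept 18 and 7 channel genes, with Kcne2 and Kcnq3 left out as too dim. That 0 therefore does not compare with the 2, since neither gene was tested there. The count was 5 with array weights and 4 with the replicate block. It was 4 without both arrays numbered 3 (an alternative chosen after seeing the data), and 2 to 5 with each array left out. It was 4 without null replicate 1, and 5 without null replicate 2 or wild-type replicate 3. The cause of these shifts was not tested. The share of all genes was counted only in the main test (4.60%) and with the replicate block (8.89%), so the other counts have no background beside them. With the replicate block 0 of all 18193 genes passed the adjusted threshold, against 4 without it, and Fzd4 had an adjusted p of 0.127. No potassium channel gene was among those 4. The channels above the array median were chosen anew from the arrays kept. Their median for endothelial channels lay between -0.05 and 0.21, for neuronal channels between -0.32 and 0.26, and their gap between -0.31 and 0.51 with each array left out. The neuronal median was 0.26 and the gap -0.31 without null replicate 1. Without probe sets that can read several transcripts no neuronal channel lay above the array median on all 6 arrays, so that median has no value there.

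Of the 23 named genes, 16 kept their direction under every alternative run. The other 7 were all under 0.4 in size. Kcnj2 was 0.03 with quantile normalization and -0.38 to 0.21 with an array left out. Kcnk13 was 0.05 with quantile normalization, 0.13 with array weights, 0.27 without both arrays numbered 3 and -0.23 to 0.12 with 1 array left out. Kcnn3 was -0.04 with array weights, -0.06 without both arrays numbered 3 and -0.14 to 0.30 with 1 left out. With 1 array left out, Kcnj14 lay between -0.05 and 0.76, Kcnk2 between -1.44 and 0.44, Kcnk6 between -0.05 and 0.21 and Kcnab1 between -0.25 and 0.00. Of the 76 genes, 58 lay below the median of all probe sets, where array signal limits what a difference can show.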
